A study of Mus musculus with 2 samples.

Results

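Cell cycle genes were followed here as a measure of dividing cells in sections of mouse pancreatic tumors. The 42 genes, taken from a list of symbols, were divided by the phase in which their products act into 19 genes of DNA replication (S phase) and 23 genes of mitosis (G2/M). Of these, 41 were found among the 19465 features measured, comprising all 19 S phase genes and 22 of the 23 G2/M genes. Cdc20 was not in the feature list used, so its expression was not analysed here and it enters only the promoter counts.

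A dividing cell licenses its replication origins in G1, copies its DNA in S phase and then builds a spindle and separates its chromosomes in mitosis. E2F factors switch on the replication genes as cells leave G1. Many mitotic genes instead carry a cell cycle homology region (CHR) together with CCAAT boxes. Such mitotic genes are turned on later and are controlled by the DREAM and MuvB complexes. Gemcitabine, a nucleoside analog used against pancreatic cancer, is incorporated into new DNA and stalls replication forks, and low oxygen is known to slow the entry of cells into the cycle.

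The spatial series has 2 libraries, 1 carrying the label KPC-shZEB1 and the other KPC-shV. KPC is a mouse pancreatic cancer cell line, shZEB1 a short hairpin against Zeb1 and shV its control vector, and the cells had been grown as orthotopic allografts in the mouse pancreas. The labels name no drug, but the study took these sections from the tissues of mice that received gemcitabine, so both groups share it and no section without the drug was analysed here. The methods give 2 tumors per group, and no source says which tumor a library covers. The methods name mice aged 4 to 6 weeks of the strains C57BL/6J, BABL/c and NSG for the study as a whole, and do not say which strain bore these tumors. The paper describes the mice of the experiment that gave these tissues as immunocompetent. In the Visium CytAssist assay probes are hybridised to the RNA of a section and captured on barcoded spots, and a spot covers a patch of tissue, usually with more than 1 cell and cell type.

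Unique molecular identifiers (UMIs) numbered 140493626 over the 2220 spots of the library labelled KPC-shZEB1 and 172059528 over the 3552 spots of the other. The median spot had 59957.5 and 52544.5 UMIs, respectively, and 70 and 729 spots had under 20000. The libraries have 1718 spot barcodes in common, which come from the position list of the slide and are not shared cells. A level is the number of UMIs of a gene or list per 1000000 UMIs of the same spots (CPM), and pairs of values are given with the library labelled KPC-shZEB1 first. No test was possible with a single library for each condition, and the 95% intervals in brackets cover counting error only, so that the spread between tumors is unknown. Spots with over 20% of their UMIs from pancreatic digestive enzymes, called acinar-rich, made up 34.0% (32.0% to 36.0%) and 6.95% (6.14% to 7.84%) of the spots. Zeb1, the targeted gene, stood at 15.6 and 12.7 CPM outside acinar-rich spots, a log2 ratio of 0.30 (0.20 to 0.40), and at a log2 ratio of -0.20 over all spots. Its level outside acinar-rich spots therefore went against the labels. Zeb1 RNA of the KPC cells and of the stroma cannot be told apart in a spot, and the fibroblast list stood at 8150.1 and 6533 CPM there, the part of which was not tested. Each direction below refers to the label of a library and not to the knockdown.

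The promoters of the members show the features that the phase division did not use. RefSeq promoters (GRCm38.p6) matched 16 of the 19 S phase genes, with 18 promoters, and 19 of the 23 G2/M genes. On either strand of the window from 250 bases before to 50 after the start, the CHR (TTTGAA or TTTAAA) was found in 89.5% of the G2/M promoters, 33.3% of the S phase promoters and 27.6% of all 32851 promoters of the table. CCAAT was found in 84.2%, 66.7% and 37.4%, and both motifs together in 78.9%, 27.8% and 10.7%. An E2F letter run, TTTGGCG or TTTCCCG or TTTCGCG or TTGGCGC or TTCCCGC or TTCGCGC, was found in 31.6%, 55.6% and 11.4%, and such a run can overlap a CCAAT read on the other strand. Counted wholly before the start, the CHR was found in 52.6% of the G2/M promoters, 27.8% of the S phase promoters and 25.2% of all promoters, and E2F letters in 31.6%, 44.4% and 9.40%. In 7 of the 17 G2/M promoters with a CHR it therefore lay only past the start or across it. Both counts describe letters in these windows and not sites in use.

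Shown are 3 G2/M promoters with the most CHR and CCAAT matches and 3 S phase promoters with the most E2F matches (in capitals). Only matches wholly before the start were ranked, a G2/M promoter had to hold both motifs there, and ties were taken by symbol. Each is printed as the 250 bases before its RefSeq start, 5′ to 3′. The promoters are Top2a at chr11:99024190-99024439, - strand, Ube2c at chr2:164769679-164769928, + strand, Cdk1 at chr10:69352913-69353162, - strand, Mcm5 at chr8:75109259-75109508, + strand, Mcm6 at chr1:128359706-128359955, - strand, and Cdc6 at chr11:98907901-98908150, + strand. The gene positions given below come from GENCODE, whose starts can differ. By them the Cdc6 stretch lies inside its gene, and the Ube2c and Cdk1 stretches reach into theirs.
Top2a: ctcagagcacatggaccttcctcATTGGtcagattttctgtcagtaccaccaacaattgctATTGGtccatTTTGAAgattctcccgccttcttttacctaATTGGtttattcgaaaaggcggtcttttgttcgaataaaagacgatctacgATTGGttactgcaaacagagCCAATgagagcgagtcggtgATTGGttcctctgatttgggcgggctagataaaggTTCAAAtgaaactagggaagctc
Ube2c: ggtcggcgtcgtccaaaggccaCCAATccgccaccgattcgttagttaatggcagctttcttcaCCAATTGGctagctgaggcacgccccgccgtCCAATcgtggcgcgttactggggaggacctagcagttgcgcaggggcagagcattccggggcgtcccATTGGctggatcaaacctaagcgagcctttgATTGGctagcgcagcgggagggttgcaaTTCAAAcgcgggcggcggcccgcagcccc
Cdk1: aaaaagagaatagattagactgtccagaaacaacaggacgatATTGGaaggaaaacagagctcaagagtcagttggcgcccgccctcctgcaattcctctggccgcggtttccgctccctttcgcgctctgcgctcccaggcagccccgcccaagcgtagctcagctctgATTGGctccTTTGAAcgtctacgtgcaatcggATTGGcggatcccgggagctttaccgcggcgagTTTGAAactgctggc
Mcm5: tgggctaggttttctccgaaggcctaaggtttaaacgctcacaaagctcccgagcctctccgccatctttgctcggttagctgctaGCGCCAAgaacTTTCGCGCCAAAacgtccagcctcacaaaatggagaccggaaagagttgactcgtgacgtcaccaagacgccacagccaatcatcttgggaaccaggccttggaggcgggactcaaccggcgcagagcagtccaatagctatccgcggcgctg
Mcm6: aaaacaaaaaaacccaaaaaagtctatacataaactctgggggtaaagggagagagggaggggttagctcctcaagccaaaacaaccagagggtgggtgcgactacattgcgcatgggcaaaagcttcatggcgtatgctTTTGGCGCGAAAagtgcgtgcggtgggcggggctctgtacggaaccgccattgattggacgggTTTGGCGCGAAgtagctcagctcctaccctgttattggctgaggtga
Cdc6: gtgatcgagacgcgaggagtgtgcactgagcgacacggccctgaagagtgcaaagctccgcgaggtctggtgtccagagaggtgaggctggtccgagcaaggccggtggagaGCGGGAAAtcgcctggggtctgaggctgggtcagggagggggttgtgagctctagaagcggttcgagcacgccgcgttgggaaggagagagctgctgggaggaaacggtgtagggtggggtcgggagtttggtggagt

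Over all spots the library labelled KPC-shZEB1 read lower in both phases, and outside acinar-rich spots the difference was small. The S phase list stood at 767.0 and 1214 CPM over all spots, a log2 ratio of -0.66 (-0.67 to -0.65), and the G2/M list at 1240.4 and 2021 CPM, a log2 ratio of -0.70. Acinar-rich spots held little of either, with 75.7 and 138 CPM of the S phase list and 73.5 and 98.6 CPM of the G2/M list. In the library labelled KPC-shZEB1 all 27 members with at least 100 UMIs in both kinds of spots were at least 1.5-fold lower in the acinar-rich ones, where 92.0% of all genes were lower and 3.18% higher by that fold. The median of these 27 members stood at a log2 ratio of -4.48, against -2.29 for all genes. By definition over 20% of the UMIs of acinar-rich spots come from digestive enzymes, whose list stood at 578594 and 390028 CPM there. Outside acinar-rich spots the S phase list stood at 1210 and 1256 CPM (log2 ratio -0.054, -0.065 to -0.043) and the G2/M list at 1988 and 2095 CPM (-0.076, -0.084 to -0.068). In a section, fewer dividing cells and less RNA of these genes per dividing cell cannot be told apart.

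**Figure D1:**
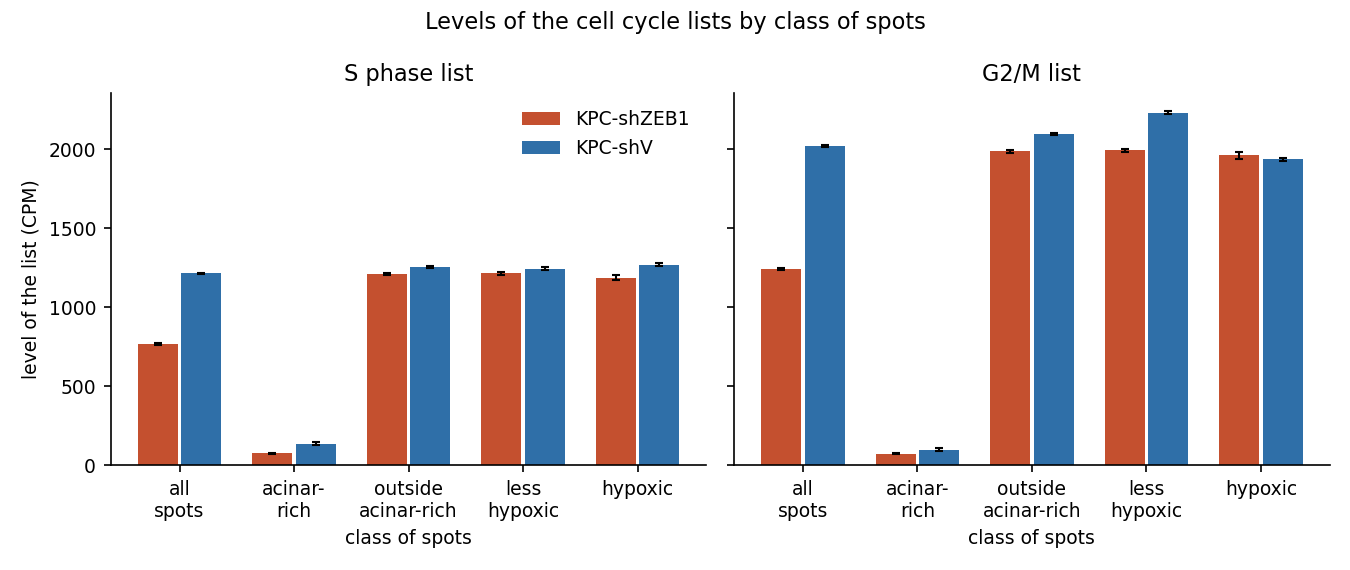
Summed level of the S phase list (left) and the G2/M list (right) in CPM by class of spots, 1 bar per library, with 95% counting intervals. Both lists were near 0 in acinar-rich spots and almost level between the libraries outside them, while over all spots the library labelled KPC-shZEB1 reached 767.0 and 1240.4 CPM against 1214 and 2021 CPM.

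The count of members past a 1.5-fold difference followed the same division. Over all spots 31 of 41 members were at least 1.5-fold lower in the library labelled KPC-shZEB1 (12 S phase and 19 G2/M genes) and 0 higher, where 39.1% of the 15358 genes tested were lower and 5.16% higher, and the median gene stood at a log2 ratio of -0.48. Outside acinar-rich spots 1 of 41 members was lower and 0 higher, against 6.45% and 11.2% of the 14389 genes tested, whose median was -0.016. The median member stood at 0.0062 in the S phase list and at -0.15 in the G2/M list. The median absolute log2 ratio of the members was 0.17 for the S phase list and 0.16 for the G2/M list, against 0.25 for all genes tested. The 14 members Mcm6, Pcna, Cdc6, Cdt1, Gins2, Ung, Uhrf1, Ccne1, Ccne2, E2f8, Mki67, Ccna2, Bub1b and Cenpf lay below 0 over all spots and above 0 outside acinar-rich spots. Including those spots moved the log2 ratios of the 41 members by -0.64 to -0.46. Acinar-rich spots held 39.0% and 3.73% of the UMIs and little of either list. A gene sparse in these spots shifts in this way through the totals alone.

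The S phase genes are described in groups by the role of their products. Origin licensing and helicase loading (Cdc6, Cdt1, Cdc45, Gins2) stood at 254 and 237 CPM outside acinar-rich spots, a log2 ratio of 0.10 (0.080 to 0.13). Cdc6 (chr11:98907801-98923940), which recruits the helicase to the origin and whose E2F letters are shown above, was at 38.1 and 33.6 CPM (log2 ratio 0.18, 0.12 to 0.24). Cdt1, the partner of Cdc6 in loading the helicase, was at 113 and 103 CPM (0.13, 0.093 to 0.17). Gins2, a subunit of the active helicase, was at 63.2 and 56.2 CPM (0.17, 0.12 to 0.22). Cdc45, which sits in the same active helicase, lay on the other side of 0, at -0.12.

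The 6 subunits of the MCM2-7 helicase, which unwinds DNA at the fork, stood together at 610.1 and 656 CPM, a log2 ratio of -0.11 (-0.12 to -0.090). They act in 1 complex but did not share 1 ratio. Mcm7 (chr5:138164583-138172422) had the lowest ratio of the S phase list, at 19.1 and 26.8 CPM (-0.49, -0.57 to -0.41), and Mcm4 followed at 50.7 and 67.7 CPM (-0.41, -0.47 to -0.36). Mcm6 (chr1:128331590-128359664), which took 19.0% and 18.2% of the UMIs of the list, was level at 230.4 and 228 CPM (0.015, -0.010 to 0.040). Mcm2, Mcm3 and Mcm5 lay between these, at -0.19, -0.095 and -0.020.

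The E2F and cyclin E genes (E2f1, E2f8, Ccne1, Ccne2), which drive cells into S phase, stood at 102 and 92.3 CPM, a log2 ratio of 0.14 (0.10 to 0.18). Ccne2 (chr4:11191351-11204779) was at 25.4 and 20.8 CPM (0.29, 0.21 to 0.36), and Ccne1 at 45.9 and 40.3 CPM (0.19, 0.13 to 0.24). Both cyclin E genes were thus higher in the library labelled KPC-shZEB1, while E2f1, the factor that opens S phase, was at -0.031 (28.6 and 29.2 CPM). The remaining genes of DNA synthesis (Pcna, Ung, Slbp, Tyms, Uhrf1) stood at 243 and 271 CPM, a log2 ratio of -0.15. Slbp, which binds histone mRNA during S phase, was at 103 and 130 CPM (-0.33, -0.36 to -0.29), Uhrf1, which helps to copy DNA methylation, at 71.5 and 69.9 CPM (0.033, -0.012 to 0.077), and Ung, a uracil DNA glycosylase, at 30.9 and 28.9 CPM (0.095, 0.026 to 0.16). Pcna, the sliding clamp of the DNA polymerases, had the highest ratio of the list, 0.46 (0.21 to 0.71), but at only 2.74 and 1.99 CPM, and E2f8, a late repressor of the E2F program, stood at 2.04 and 2.03 CPM (0.0062, -0.27 to 0.27). The 10 genes taken as not expected in this tissue stood at 0.502 to 1.40 CPM, so both genes were read close to the assay floor. Of the 19 S phase genes the intervals of 7 lay above 0, those of 7 below and those of 5 held 0. The share of all genes with such intervals was not counted.

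The G2/M genes lay more often below 0, with a median of -0.15 against -0.016 for all genes tested. Of their 22 intervals 15 lay below 0, 3 above and 4 held it, and this count was not made over all genes. The mitotic kinases (Cdk1, Aurka, Aurkb, Plk1, Bub1, Bub1b) stood at 451 and 541 CPM outside acinar-rich spots, a log2 ratio of -0.26 (-0.28 to -0.25). Cdk1 (chr10:69335146-69352938), the kinase that starts mitosis, was at 247 and 312 CPM (-0.34, -0.36 to -0.31). Plk1, which acts in spindle assembly and mitotic exit, was at 23.7 and 31.0 CPM (-0.39, -0.46 to -0.31). The spindle checkpoint pair went opposite ways. Bub1 was at 54.0 and 67.6 CPM (-0.32) and Bub1b at 66.7 and 60.8 CPM (0.13, 0.086 to 0.18).

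The cyclins that partner Cdk1 lay on either side of 0. Ccna2, cyclin A, was at 233 and 216 CPM (0.11, 0.084 to 0.13), and Ccnb2, a cyclin B, at 91.6 and 96.7 CPM (-0.077, -0.12 to -0.038). The spindle motors and spindle proteins (Cenpe, Cenpf, Kif11, Kif20a, Kif23, Tpx2, Nusap1, Hmmr) stood at 517 and 559 CPM, a log2 ratio of -0.11. Within them Kif20a, a kinesin of cytokinesis, was at 21.8 and 32.4 CPM (-0.58, -0.65 to -0.50), just inside the 1.5-fold limit, and Cenpf, a kinetochore protein, was level at 63.9 and 63.8 CPM (0.0014, -0.046 to 0.049). Birc5 and Cdca8 of the chromosomal passenger complex and Anln, which organises the cleavage furrow, stood together at 202 and 231 CPM (-0.19). Ube2c (chr2:164769898-164778822), the ubiquitin-conjugating enzyme of the anaphase-promoting complex whose promoter is shown above, was the member past the 1.5-fold limit, at 9.75 and 15.5 CPM (-0.67, -0.78 to -0.55). Mki67 (chr7:135689784-135716361), the gene of the proliferation marker Ki-67, had the highest ratio of the list, at 343 and 292 CPM (0.23, 0.21 to 0.25). Top2a, which untangles sister chromatids, was at 141 and 144 CPM (-0.036, -0.068 to -0.0047), so of these markers only Mki67 lay on the other side of 0 from Cdk1 and Ube2c.

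**Figure D2:**
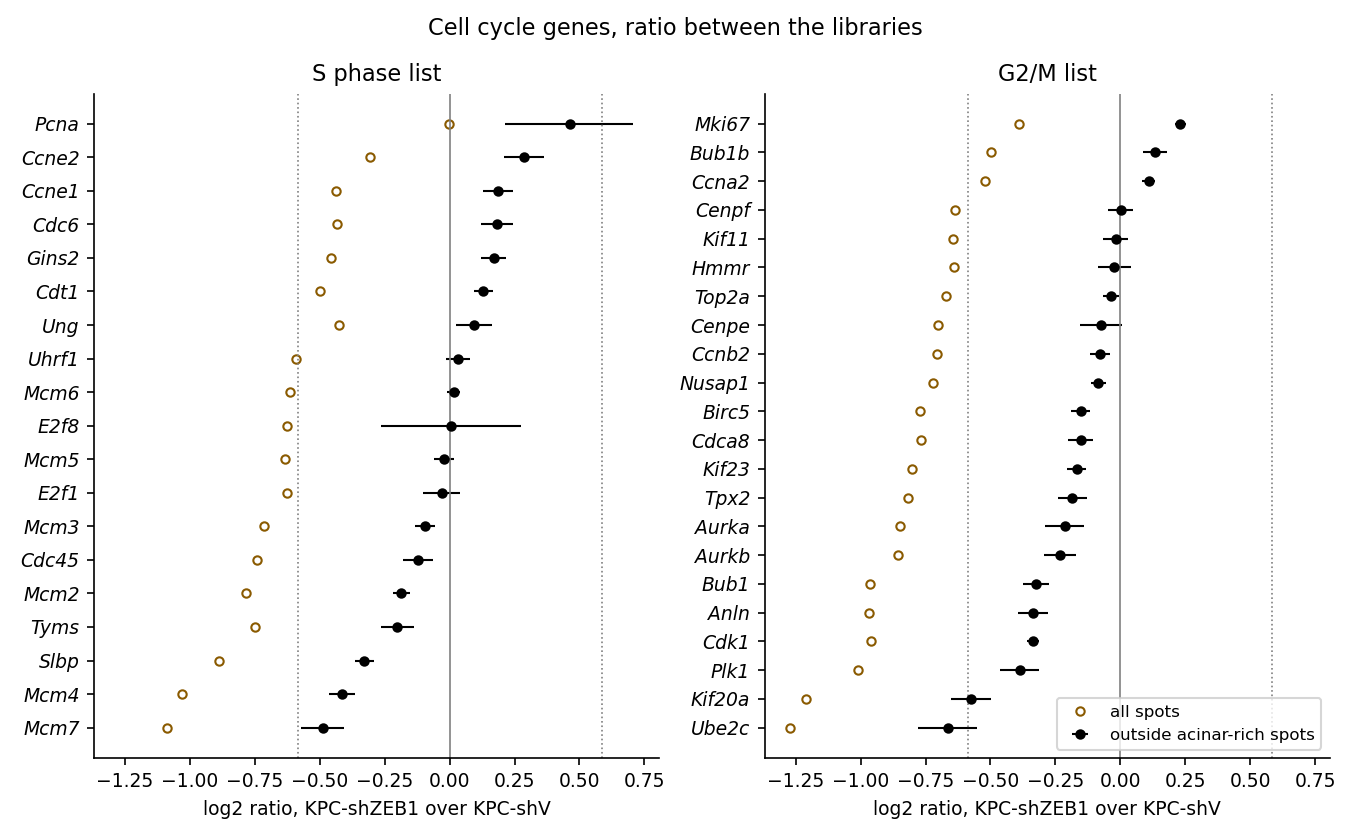
Log2 ratio of the library labelled KPC-shZEB1 over the library labelled KPC-shV for each S phase gene (left) and G2/M gene (right), outside acinar-rich spots (filled, with 95% counting intervals) and over all spots (open), with dotted lines at a 1.5-fold difference. The open points lie to the left of the filled ones for all members, and outside acinar-rich spots only Ube2c lies past the dotted line.

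Spot by spot the libraries overlapped widely. The median spot outside acinar-rich spots had 1148 and 1138 CPM of the S phase list, with lower quartiles of 853 and 850.1 CPM and upper quartiles of 1464 and 1432 CPM. For the G2/M list the medians were 1932 and 1771 CPM, with lower quartiles of 1307 and 1068 CPM and upper quartiles of 2506 and 2406 CPM. The library labelled KPC-shV had more spots with little of the G2/M list, and its summed level was nonetheless the higher, since a sum weights spots by their UMIs. With every spot weighted equally, both log2 ratios turned positive, to 0.038 for the S phase list and 0.097 for the G2/M list. Spots rich in one list were rich in the other, with a Spearman rho of 0.74 over 1466 spots and 0.69 over 3305 spots, which share a library, its depth and the cell content of each spot. In each library all 21 G2/M genes with at least 1 UMI per spot on average followed their own list more closely than the S phase list. Of the 17 such S phase genes, 15 and 8 followed their own list more closely than the G2/M list. The G2/M list held more UMIs, with means of 116 and 105 per spot against 70.7 and 63.0 for the S phase list. The part of this in the comparison was not tested. In the library labelled KPC-shV the median of these S phase genes had a rho of 0.42 with the G2/M list and 0.40 with its own. Among them Slbp, with a rho of 0.23 and 0.19, followed its own list least.

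**Figure D3:**
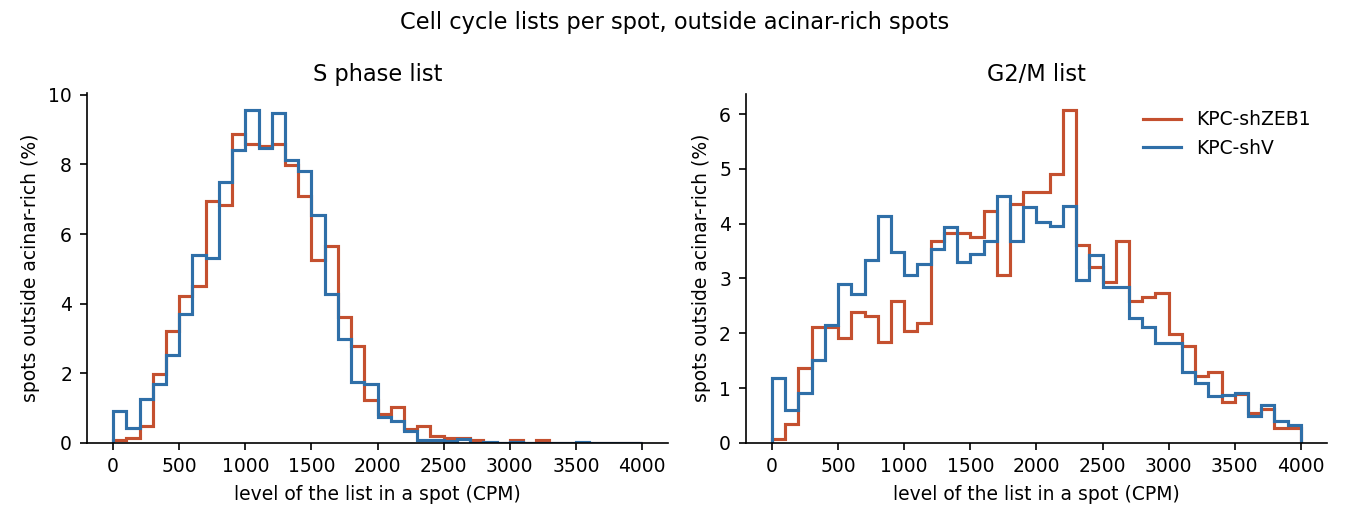
Share of spots outside acinar-rich spots (in percent) by their level of the S phase list (left) and of the G2/M list (right) in CPM, 1 line per library, in bins up to 4000 CPM. The S phase lines nearly coincide, with medians of 1148 and 1138 CPM, and the G2/M line of the library labelled KPC-shV lies further to the left, with medians of 1932 and 1771 CPM and lower quartiles of 1307 and 1068 CPM.

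The balance of the phases was nearly equal between the libraries. Outside acinar-rich spots there were 0.609 (0.604 to 0.613) and 0.599 (0.596 to 0.603) S phase UMIs per G2/M UMI, a log2 ratio of 0.022 (0.0082 to 0.035), and over all spots 0.618 and 0.601. The value depends on the genes and probes of each list and is no share of cells, and without a section that had not received gemcitabine it has no reference for an arrest in S phase.

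As summed lists, the phases came apart with hypoxia in the library labelled KPC-shV. Spots were ranked by their level of the hypoxia list, made of targets of hypoxia-inducible factor such as Car9, Slc2a1 and Vegfa (16 of its 18 genes were measured), which stood at 1296 and 2449 CPM outside acinar-rich spots. Divided at 1584 CPM, the median spot of the library labelled KPC-shV, there were 270 and 1652 hypoxic and 1196 and 1653 less hypoxic spots. In the library labelled KPC-shV the G2/M list stood at 1937 CPM in hypoxic and 2230 CPM in less hypoxic spots, a log2 ratio of -0.20 (-0.21 to -0.19), while the S phase list was slightly higher, at 1269 against 1245 CPM (0.028, 0.016 to 0.041). In the library labelled KPC-shZEB1 both lists differed little, with 1961 against 1993 CPM of G2/M (-0.023) and 1187 against 1214 CPM of S phase (-0.032), and divided at its own median spot they turned positive, to 0.043 and 0.049. No member reached a 1.5-fold difference in either direction, 0 of 39 with at least 100 UMIs in both kinds of spots in the library labelled KPC-shZEB1, where 6.68% of all genes were lower and 4.55% higher, and 0 of 41 in the library labelled KPC-shV, where 13.8% were lower and 4.79% higher. Mki67 (-0.40, -0.42 to -0.37), Ccna2 (-0.34), Kif20a (-0.31) and Ccnb2 (-0.30) had the lowest ratios of the G2/M list in the library labelled KPC-shV. Of the S phase list Mcm7 (0.24), Mcm4 (0.19) and Slbp (0.17) lay above 0 there, but most of its genes did not. The intervals of 10 of its 19 genes lay below 0, those of 6 above and those of 3 held 0. This count, too, was not made over all genes. The median S phase gene stood at -0.095 and the lowest at -0.46, against a median of -0.18 in the G2/M list. A list of 24 other replication genes was lower in hypoxic spots of both libraries, at -0.069 (-0.094 to -0.044) and -0.055 (-0.068 to -0.041). A list of 22 other mitosis genes stood at 0.022 and -0.19.

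Between the libraries the lists were also compared within each kind of spot. In less hypoxic spots, at 962 and 959 CPM of the hypoxia list, the G2/M list stood at 1993 and 2230 CPM and 2 of 41 members were at least 1.5-fold lower in the library labelled KPC-shZEB1 and 0 higher, against 6.15% and 7.69% of all genes. The hypoxic spots were not alike, at 2895 and 4201 CPM of the hypoxia list. In them the G2/M list stood at 1961 and 1937 CPM (log2 ratio 0.018), and of 39 members with the UMIs 0 were lower and 0 higher, against 5.90% and 10.1% of all genes. The S phase list stood at 1214 and 1245 CPM (-0.036) in less hypoxic and at 1187 and 1269 CPM (-0.096) in hypoxic spots. The S phase UMIs per G2/M UMI were 0.609 and 0.558 in less hypoxic spots and 0.605 and 0.655 in hypoxic spots.

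The difference lay in the most hypoxic quartile of the library labelled KPC-shV. From the least to the most hypoxic quartile of its spots the G2/M list stood at 2179, 2282, 2254 and 1385 CPM, and the S phase list at 1195, 1294, 1356 and 1118 CPM. The S phase UMIs per G2/M UMI were accordingly 0.549, 0.567, 0.602 and 0.807. Between the highest and the lowest quartile 13 of 22 G2/M genes and 2 of 17 S phase genes were at least 1.5-fold lower and 0 higher, where 15.7% of the 11040 genes tested were lower and 11.0% higher. The median member stood at -0.59 in the G2/M list and at -0.26 in the S phase list, against -0.025 for all genes. Mki67 had the lowest ratio of the list, with 329 CPM in the lowest and 167 CPM in the highest quartile (-0.98, -1.03 to -0.93). Ccnb2 (-0.86), Ccna2 (-0.84), Plk1 (-0.79), Kif11 (-0.79) and Kif20a (-0.79) followed it, while Bub1 stood at -0.26 and Ube2c at 0.066.

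Among the 17 S phase genes with at least 100 UMIs in both quartiles the cyclin E genes were lowest, and part of the helicase was not lower. E2f8, below that limit, stood at 2.58 CPM in the lowest and 1.44 CPM in the highest quartile (-0.84, -1.40 to -0.31). Ccne1 had 44.2 CPM in the lowest and 22.8 CPM in the highest quartile (-0.96, -1.09 to -0.83), and Ccne2 23.6 and 15.4 CPM (-0.61, -0.78 to -0.45). Uhrf1 (-0.48), Gins2 (-0.45), Cdc6 (-0.44), Cdc45 (-0.40), Mcm5 (-0.39) and Tyms (-0.39), the thymidylate synthase, were lower by less than 1.5-fold. Mcm4 was higher, with 57.4 CPM in the lowest and 71.2 CPM in the highest quartile (0.31, 0.23 to 0.40), as was Slbp, with 114 and 143 CPM (0.33, 0.27 to 0.39). Mcm3 (0.037), Mcm6 (0.084) and Mcm7 (0.043) stood near 0, so the genes of the list did not share a direction.

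The least and most hypoxic quartiles of the library labelled KPC-shZEB1 showed no such step, and they spanned less hypoxia. Its highest quartile had 2469 CPM of the hypoxia list, against 6942 CPM in the other library. From the lowest to the highest quartile its G2/M list stood at 1848, 2059, 2011 and 2021 CPM and its S phase list at 1124, 1248, 1233 and 1226 CPM. Between the highest and lowest of these quartiles 0 of 39 members were 1.5-fold lower or higher, where 8.86% of all genes were lower and 7.05% higher, and the median member stood at 0.12, as did the median gene. Mki67 had 331 CPM in the lowest and 349 CPM in the highest quartile.

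**Figure D4:**
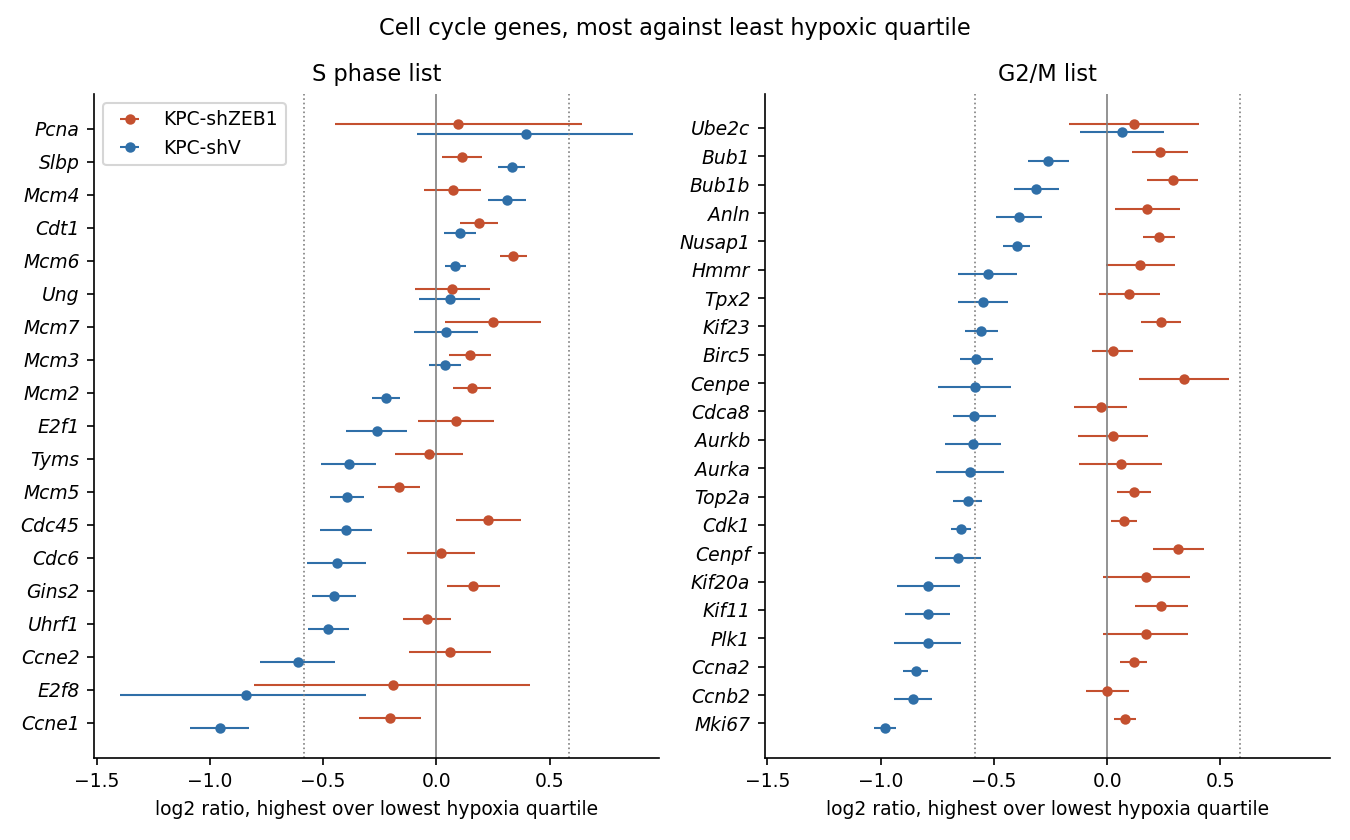
Log2 ratio of the highest over the lowest hypoxia quartile of the same library for each S phase gene (left) and G2/M gene (right), outside acinar-rich spots, with 95% counting intervals and dotted lines at a 1.5-fold difference. In the library labelled KPC-shV 13 of 22 G2/M genes lie past the left line, with Mki67 lowest at -0.98, and in the library labelled KPC-shZEB1 no member with enough UMIs does. The quartiles of the libraries span different ranges of hypoxia.

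With the spots of both libraries placed in the same 4 bins, limited at 922, 1584 and 4319 CPM of the hypoxia list, only 41 of 1466 spots of the library labelled KPC-shZEB1 but 826 of 3305 of the library labelled KPC-shV fell in the highest bin, at 6467 and 6942 CPM of the hypoxia list. In that bin the G2/M list stood at 1481 (1428 to 1535) and 1385 (1371 to 1399) CPM, both lower than in the other bins. From the lowest to the highest bin the log2 ratio of the library labelled KPC-shZEB1 over the other was -0.19, -0.14, -0.15 and 0.097 for the G2/M list and -0.039, -0.038, -0.16 and -0.17 for the S phase list. Against the lowest bin of the same library the log2 ratio was -0.37 (-0.42 to -0.31) and -0.65 (-0.67 to -0.64), and for the S phase list -0.23 (-0.29 to -0.16) and -0.097 (-0.12 to -0.077). Mki67 stood at 255 CPM in the highest and 335 CPM in the lowest bin of the library labelled KPC-shZEB1 (-0.39, -0.52 to -0.26), Ccna2 at 155 and 223 CPM, and Ccne1 at 27.9 and 46.9 CPM. In that library 9 G2/M and 7 S phase genes had at least 100 UMIs in both bins, of which 2 and 1 were at least 1.5-fold lower and 0 higher, against 5.43% and 16.7% of all genes. The S phase UMIs per G2/M UMI of the highest bin were 0.671 (0.633 to 0.710) and 0.807 (0.796 to 0.819). Low G2/M levels in the most hypoxic spots were thus read in both libraries, on few spots in one of them.

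**Figure D5:**
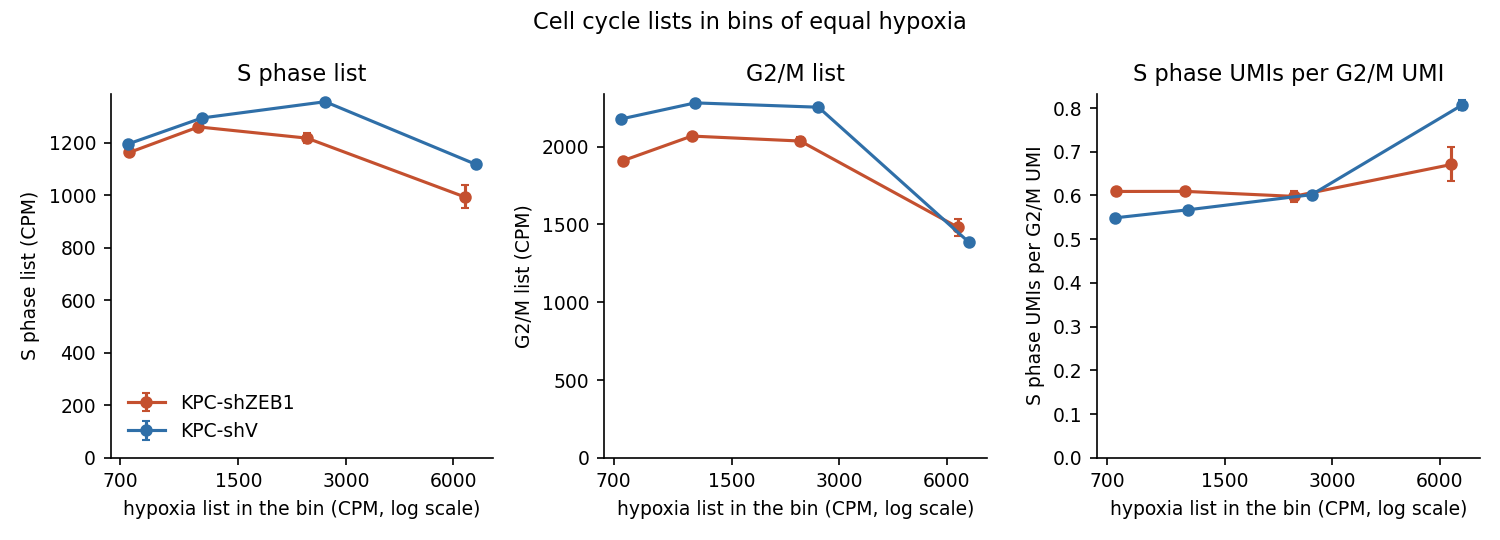
S phase list (left), G2/M list (middle) and S phase UMIs per G2/M UMI (right) against the level of the hypoxia list (CPM, log scale) in 4 bins with the same limits in both libraries, outside acinar-rich spots, with 95% counting intervals. The G2/M list is lowest in the highest bin of each library, at 1481 and 1385 CPM, and the ratio of S phase to G2/M UMIs is highest there, at 0.671 and 0.807.

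Other signals moved with hypoxia, and their part in these differences was not tested. In the highest bin the median spot had 47622 and 32376.5 UMIs, against 57217 and 60525 in the lowest. Without the spots under 20000 UMIs the G2/M list of the library labelled KPC-shV stood at 1425 CPM in the highest and 2225 CPM in the lowest bin, 11 of 22 G2/M and 2 of 17 S phase genes were at least 1.5-fold lower and 0 higher, and 15.0% of all genes were lower and 10.4% higher. From the lowest to the highest bin the tumor epithelium list went from 4881 to 9288 and from 5146 to 8422 CPM, and the fibroblast list from 10610 to 2822 and from 10945 to 1465 CPM. The neutrophil list, all 6 genes of which were measured, stood at 140 CPM in the lowest and 162 CPM in the highest bin of the library labelled KPC-shZEB1 and at 146 and 946 CPM in the library labelled KPC-shV. Macrophage list levels went from 3293 to 886 and from 2795 to 575 CPM.

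Some of the genes that restrain the cycle were higher in the most hypoxic spots. Of 12 inhibitor genes, 6 were at least 1.5-fold higher and 1 lower in the highest than in the lowest quartile of the library labelled KPC-shV, where 11.0% of all genes were higher and 15.7% lower, and 3 were higher and 0 lower in the library labelled KPC-shZEB1, where 7.05% were higher and 8.86% lower. In each library 5 of the 12 lay below 0, and the median inhibitor stood at 0.32 and 0.071, against -0.025 and 0.12 for all genes, with the library labelled KPC-shV first. Ccng2, an atypical cyclin linked to arrest, had 195 CPM in the lowest and 652 CPM in the highest quartile of the library labelled KPC-shV (1.74, 1.70 to 1.78), and 152 and 281 CPM in the library labelled KPC-shZEB1 (0.89, 0.82 to 0.95). Cdkn1a, which encodes the inhibitor p21, went from 142 to 373 CPM under KPC-shV (log2 ratio 1.39, 1.35 to 1.44). Under KPC-shZEB1, whose quartiles spanned less hypoxia, it went from 87.6 to 103 CPM (0.24, 0.15 to 0.33). Between the lowest and the highest of the shared bins Cdkn1a rose in both libraries, from 91.0 to 224 CPM under KPC-shZEB1 and from 142 to 373 CPM under KPC-shV. Cdkn2c, which encodes p18, was the inhibitor at least 1.5-fold lower, with 53.9 CPM in the lowest and 25.5 CPM in the highest quartile of the library labelled KPC-shV (-1.08).

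The wider pathway was compared between the libraries outside acinar-rich spots, where 6.45% of all genes were at least 1.5-fold lower and 11.2% higher. Of 24 other replication genes measured, 0 passed the 1.5-fold limit in either direction, from Tk1, a thymidine kinase (-0.31), to Rpa1, which coats single-stranded DNA (0.32), with a median of 0.0015. Of 22 other mitosis genes, 1 was lower, Cenpa, the centromeric histone, at 60.6 and 93.5 CPM (-0.63, -0.67 to -0.58), and 0 were higher, with a median of -0.073 and the highest ratio for Smc4 of condensin (0.16). The replication checkpoint and repair genes had 1 of 15 lower, Wee1, the kinase that holds Cdk1 inactive, at 9.59 and 17.7 CPM (-0.88), and their highest was Tipin (0.15).

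Larger differences lay in the control of G1. Cdk6, which drives cells through G1 with D-type cyclins, was at 580.5 and 217 CPM (1.42, 1.40 to 1.44), whereas Ccnd1 (cyclin D1), which binds it, at 141 and 244 CPM (-0.79, -0.82 to -0.76), and Cdk4, the other kinase of the D-type cyclins, at 342 and 513 CPM (-0.59, -0.61 to -0.57), were lower in the library labelled KPC-shZEB1, making 1 of 8 genes higher and 2 lower. Of the 12 inhibitors 4 were at least 1.5-fold lower and 0 higher, and of the 14 p53 targets 1 was lower and 0 higher, against the same 6.45% and 11.2% of all genes. These were Cdkn1a at 90.3 and 183 CPM (-1.02, -1.05 to -0.98), Ccng2 (-0.72), Cdkn2a (-0.71) and Cdkn2b (-0.67), while Cdkn2c had the highest ratio (0.45). Of the p53 targets Plk2 was lower (-0.83) and Ccng1 had the highest ratio (0.39). The hypoxia list itself had a log2 ratio of -0.92 between the libraries, and its part in the Cdkn1a and Ccng2 ratios was not tested.

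Spots rich in B cell, fibroblast or macrophage UMIs had low cell cycle levels. Spots with the highest share of B cell list UMIs numbered 162 and 118 outside acinar-rich spots. In them the G2/M list stood at 800.3 and 1126 CPM, against 2076 and 2105 CPM in the other spots (log2 ratio -1.38 and -0.90). The S phase list stood at 676 and 730.2 CPM, against 1249 and 1261 CPM. These B cell rich spots had medians of 33433 and 11793 UMIs, and 36 and 91 of them had under 20000. Most of them in the library labelled KPC-shV were thus shallow. By quartile of the tumor epithelium list the G2/M list stood at 1332, 2223, 2273 and 1976 CPM in the library labelled KPC-shZEB1 and at 1622, 2289, 2308 and 1904 CPM in the library labelled KPC-shV, so the lowest levels were in the spots with the least epithelium and the highest in the middle quartiles. By quartile of the fibroblast list the highest quartile was lowest, at 1471 and 1546 CPM of the G2/M list. The same held by quartile of the macrophage list, with 1311 and 1584 CPM in its highest quartile. By quartile of the T cell list the G2/M list stood at 2256, 2103, 1972 and 1564 CPM in the library labelled KPC-shZEB1. In the library labelled KPC-shV it stood at 1937, 2219, 2241 and 1895 CPM. The T cell list itself stood at 0 CPM in the lowest and 4.05 CPM in the next quartile of the library labelled KPC-shV. Those quartiles were therefore barely told apart by T cell content. T cell and macrophage lists stood higher in the library labelled KPC-shZEB1 outside acinar-rich spots, at 142 and 29.9 CPM and at 2622 and 1710 CPM, and the tumor epithelium list at 5813 and 6390 CPM. Their part in the small differences between the libraries was not tested. Leaving out the B cell rich spots alone moved the log2 ratio of the G2/M list to -0.020 and that of the S phase list to -0.014.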

How the data were processed

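Libraries of the probe-based Visium CytAssist assay were processed by the authors with Space Ranger 2.0.1 on mm10 per the labels, and unnormalized UMI counts of each gene in each spot were deposited, 1 library for each condition. The counts of a gene or list were summed over spots and divided by the UMIs of the same spots. Intervals at the 95% level were exact binomial for a share, conditional binomial for a ratio and Poisson for a level. The log2 ratio between the libraries of S phase UMIs per G2/M UMI had a log-normal interval for counting error. With 1 library per condition no test was run and no p-value is given. Genes with at least 100 UMIs in both groups of spots entered counts past a 1.5-fold difference. At the totals of 140493626 and 172059528 UMIs, 1 CPM is over 100 UMIs, and single spots hold few UMIs of most members.

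The members and lists were chosen with earlier results of these data known. Values in full were given for the 3 highest and 3 lowest ratios of each list outside acinar-rich spots, members whose direction changed without acinar-rich spots, Mki67, Top2a and Pcna, and the extremes of the other lists. Other members were named for their role or their hypoxia ratio after their values were seen, as were the 4 bins shared by both libraries, the 10 genes not expected in the tissue and the count without spots under 20000 UMIs. Listed genes not in the feature list used or with a repeated symbol were left out (Cdc20, Rrm2, Ndc80, Ccnb1, Kif2c, Ero1a, Higd1a, Krt18 and Hba-a1 among them). The endothelial list stood at 121 and 177 CPM and the red cell precursor list at 13.4 and 35.2 CPM outside acinar-rich spots, and 6 further glycolytic genes at 1274 and 1851 CPM.

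Promoters were RefSeq GRCm38.p6 windows of 250 bases before to 50 after the start, and motifs were counted over the whole window and, separately and chosen after seeing the data, where they lay wholly before the start. GENCODE M21 (GRCm38) gave the gene positions. Tools were matplotlib 3.10.9, scipy 1.17.1, numpy 2.4.6 and Python 3.11.15. The computation was tested on simulated data for the ratio of KPC-shZEB1 over KPC-shV, drawn for 19465 genes and 500 spots in each library. All 200 changed genes came out in the right direction, and 95.8% of 19285 intervals held the true value. Neither the images nor the positions of the spots were used, doublets were not called in spots, and cell type shares were not estimated.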

Additional observations from a re-analysis of the deposited data

Results flagged for a closer look

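Between hypoxic and less hypoxic spots the S phase list had opposite signs in the libraries, with intervals on either side of 0. Its log2 ratio was -0.032 under the label KPC-shZEB1 and 0.028 under the label KPC-shV. Divided at the median spot of the library labelled KPC-shZEB1, its ratio in that library was positive too. The list of other replication genes was lower in hypoxic spots of both libraries, at -0.069 and -0.055. Kif23, a kinesin of cytokinesis, had a log2 ratio of 0.12 and -0.11, respectively. The difference between the libraries was not tested in either case, as each is 1 library.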

How the results depend on the processing

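No paired analysis was possible because each group is 1 library. The main values, outside acinar-rich spots, were log2 ratios of -0.054 for the S phase list, -0.076 for the G2/M list and 0.022 for S phase UMIs per G2/M UMI. With all spots they were -0.66, -0.70 and 0.041. With acinar-rich set at over 40% of UMIs the lists stood at -0.080 and -0.10, and at over 5% the G2/M list stood at -0.066. Without spots under 20000 UMIs they stood at -0.071 and -0.098. Without the 5% of all spots richest in B cell UMIs the 3 values were -0.014, -0.020 and 0.0062. Median-of-ratios scaling gave -0.038 and -0.060. Equal weight for every spot gave 0.038, 0.097 and -0.059. Without the 5% of spots with the highest level the G2/M list was -0.053 and the ratio of the lists -0.0062. The mean log2 ratio of the genes gave -0.017, -0.16 and 0.15. Without Mcm6 and Mki67, the members with the most UMIs and an alternative chosen after seeing the data, they were -0.070, -0.13 and 0.062. The 1 member at least 1.5-fold lower, against 6.45% of all genes, became 31 with all spots, against 39.1%. It became 2 at over 40% or without shallow spots and 0 among members with at least 1000 UMIs. For these last settings the share of all genes is not given, so their counts have no reference.

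Between hypoxic and less hypoxic spots of the library labelled KPC-shZEB1 the S phase and G2/M lists stood at -0.032 and -0.023. They were 0.049 and 0.043 at the median of the same library, 0.12 and 0.13 between its outer quartiles, 0.064 and 0.11 by glycolysis genes, 0.73 and 0.76 with all spots, -0.090 and -0.10 without B cell rich spots, 0.037 and 0.043 with equal spot weights, and -0.23 and -0.37 between the outer shared bins, chosen after seeing the data. In the library labelled KPC-shV they stood at 0.028 and -0.20. They were -0.097 and -0.65 between the outer quartiles, 0.057 and -0.11 by glycolysis genes, and 0.12 and -0.11 with all spots, with 0.077 for the S phase list by equal weights and -0.21 for the G2/M list without B cell rich spots. Of 328 values of single members under 8 alternatives, 224 stayed inside the main interval and 104 moved outside it. The sign changed for 14 of 41 members with all spots, 9 with equal spot weights and 4 without B cell rich spots. It changed for 3 with acinar-rich set at over 40%, 3 without spots under 20000 UMIs and 1 with acinar-rich set at over 5%. The cause of these shifts was not tested. Counting intervals are narrow at this depth, and the spread between tumors is unknown.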
